A study of Mus musculus with 10 samples.

Results

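The tricarboxylic acid (TCA) cycle and isocitrate dehydrogenase genes examined here are Cs, Idh1, Idh2, Idh3a, Idh3b, Idh3g, Ogdh, Fh1 and Mdh2. They were taken by gene symbol from a table of read counts with 55492 symbols, which held all 9. All 9 passed the low-count filter, as did 21010 genes in all. The counts came from RNA sequencing of primary mouse B cells that lacked or carried Pcbp1, a poly(rC)-binding protein. Induced germinal center B cells (iGCB) are B cells grown on 40-LB feeder cells, which provide germinal center-like stimulation, and were collected on day 4. They formed 3 knockout (KO) and 3 wild-type (WT) libraries. Naive B cells of the spleen, collected on day 0 with no treatment, formed 2 KO and 2 WT libraries. KO mice carried floxed Pcbp1 alleles (fl/fl) and Mb1-Cre, which is active in B cells from an early stage of their development. The labels give neither the age, strain or sex of the mice, nor whether WT mice carried Cre, nor whether each library came from its own mouse. Day 4 in culture and day 0 from the spleen also differ in growth conditions, so differentiation and culture cannot be told apart. In such bulk samples fewer cells of a type and less RNA per cell cannot be told apart either.

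The TCA cycle runs in the mitochondrial matrix, where it oxidises acetyl groups and passes electrons to the respiratory chain. Isocitrate is oxidised there by the NAD-dependent enzyme IDH3, built from the products of Idh3a, Idh3b and Idh3g, and by the NADP-dependent enzyme IDH2. IDH1 carries out the NADP-dependent reaction in the cytosol and peroxisomes. Germinal center B cells are known for fast division and a raised demand for mitochondrial metabolism.

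Total counts ranged between 33400672 and 63576147 per library. Pcbp1, the deleted gene, was present at 3.70, 1.96 and 2.59 CPM (read counts scaled to the size of each library) in iGCB KO libraries, against 148, 327 and 326 CPM in iGCB WT libraries. It was at 4.33 and 0.448 CPM in naive KO libraries and at 152 and 83.8 CPM in naive WT libraries, so the labels and the counts match in every library. All 7 B cell markers were detected in every library, and summed to 4777 to 5126 CPM in iGCB KO, 4155 to 4526 CPM in iGCB WT, 5970.5 and 5893 CPM in naive KO and 8783 and 7084 CPM in naive WT libraries. Cd79a, a chain of the B cell receptor complex, was the 1 B cell marker called, and was lower in KO cells at both stages: its mean was 389.98 CPM in iGCB KO and 795 CPM in iGCB WT cells (adjusted p 0.00794), and 423 CPM in naive KO and 1279 CPM in naive WT cells (adjusted p 0.0126 by edgeR). KO mice also carried Mb1-Cre, and the labels do not say whether WT mice did. Whether lower Cd79a goes with Mb1-Cre or with loss of Pcbp1 cannot be told apart here and was not tested. The other 6 B cell markers had log2 fold changes of KO over WT above 0 in iGCB cells, while all 7 were below 0 in naive cells. Summed markers of plasma cells were 975 to 1073 CPM in iGCB KO libraries and 1939 to 2070 CPM in iGCB WT libraries. Of these 6 markers 3 were called lower in iGCB KO cells, where 0.923% of all genes tested were called lower. Tnfrsf17 was at 0 in all 3 iGCB KO libraries, and it was also near the floor in iGCB WT libraries, at 0.0584 to 0.247 CPM. Fibroblast markers, which the feeder cells could supply, summed to 324 to 375 CPM in iGCB KO, 359 to 452 CPM in iGCB WT, 3.11 to 22.6 CPM in naive KO and 16.9 to 19.4 CPM in naive WT libraries, with Thy1 the most abundant in each iGCB library. Summed myeloid markers were 13.8 to 50.3 CPM in iGCB KO, 5.40 to 17.3 CPM in iGCB WT, 29.1 and 269.8 CPM in naive KO and 187 and 206 CPM in naive WT libraries. Summed T cell markers were 62.7 to 71.2 CPM in iGCB KO, 20.9 to 28.1 CPM in iGCB WT, 57.9 and 119 CPM in naive KO and 64.7 and 90.7 CPM in naive WT libraries, with Lck the most abundant in each. Lck averaged 64.9 CPM in iGCB KO and 21.5 CPM in iGCB WT cells. Of the 8 T cell markers 6 had a log2 fold change below 0 in iGCB KO against iGCB WT cells. Summed erythroid and platelet markers were at most 8.12 CPM in iGCB libraries and 27.1 to 212 CPM in naive libraries. By Xist and Y-linked genes the naive libraries numbered 1 of both genotypes were female and the other 8 libraries were male.

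The genes lie on 8 chromosomes of the mm10 build, and positions come from the GENCODE M21 annotation. Cs spans chr10:128337734-128362479 on the plus strand. Idh1 spans chr1:65158616-65186500 and Fh1 chr1:175600374-175625635, both on the minus strand. Idh2 spans chr7:80094846-80115392 on the minus strand. Of the IDH3 subunit genes, Idh3a spans chr9:54586334-54604661 on the plus strand, Idh3b chr2:130279309-130284547 on the minus strand and Idh3g chrX:73778963-73786897 on the minus strand. Ogdh spans chr11:6291633-6356642 and Mdh2 chr5:135778480-135790398, both on the plus strand. The exons of Idh3b share 5 bases with those of Nop56 on the other strand, and no other exon overlap was found.

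Idh2, the mitochondrial NADP-dependent isocitrate dehydrogenase, was lower in KO than in WT iGCB cells. It was measured at 42.9, 43.3 and 39.1 CPM in iGCB KO libraries, against 76.5, 79.1 and 90.7 CPM in iGCB WT libraries. Every KO library lay below every WT library. The mean was 41.7 ± 2.34 CPM in KO and 82.1 ± 7.57 CPM in WT cells (SD, n = 3 each), a log2 fold change of -0.98 (SE 0.15, 95% interval -1.31 to -0.64). Its adjusted p was 0.0111 in edgeR's quasi-likelihood test with Benjamini-Hochberg adjustment over 21010 genes. Idh2 was the 1 of the 9 genes called at an adjusted p under 0.05, where 1.27% of all genes tested were called, and 0.923% were called lower. Groups in which every KO library lay below every WT library made up 10.3% of all genes. The call was lost, with the log2 fold change between -1.02 and -0.90, when any iGCB KO library or iGCB WT library 3 was left out (adjusted p 0.0566 to 0.0898). It was kept under the other 14 of 18 alternatives. The summed plasma cell markers moved the same way, and their part in the result was not tested.

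**Figure D1:**
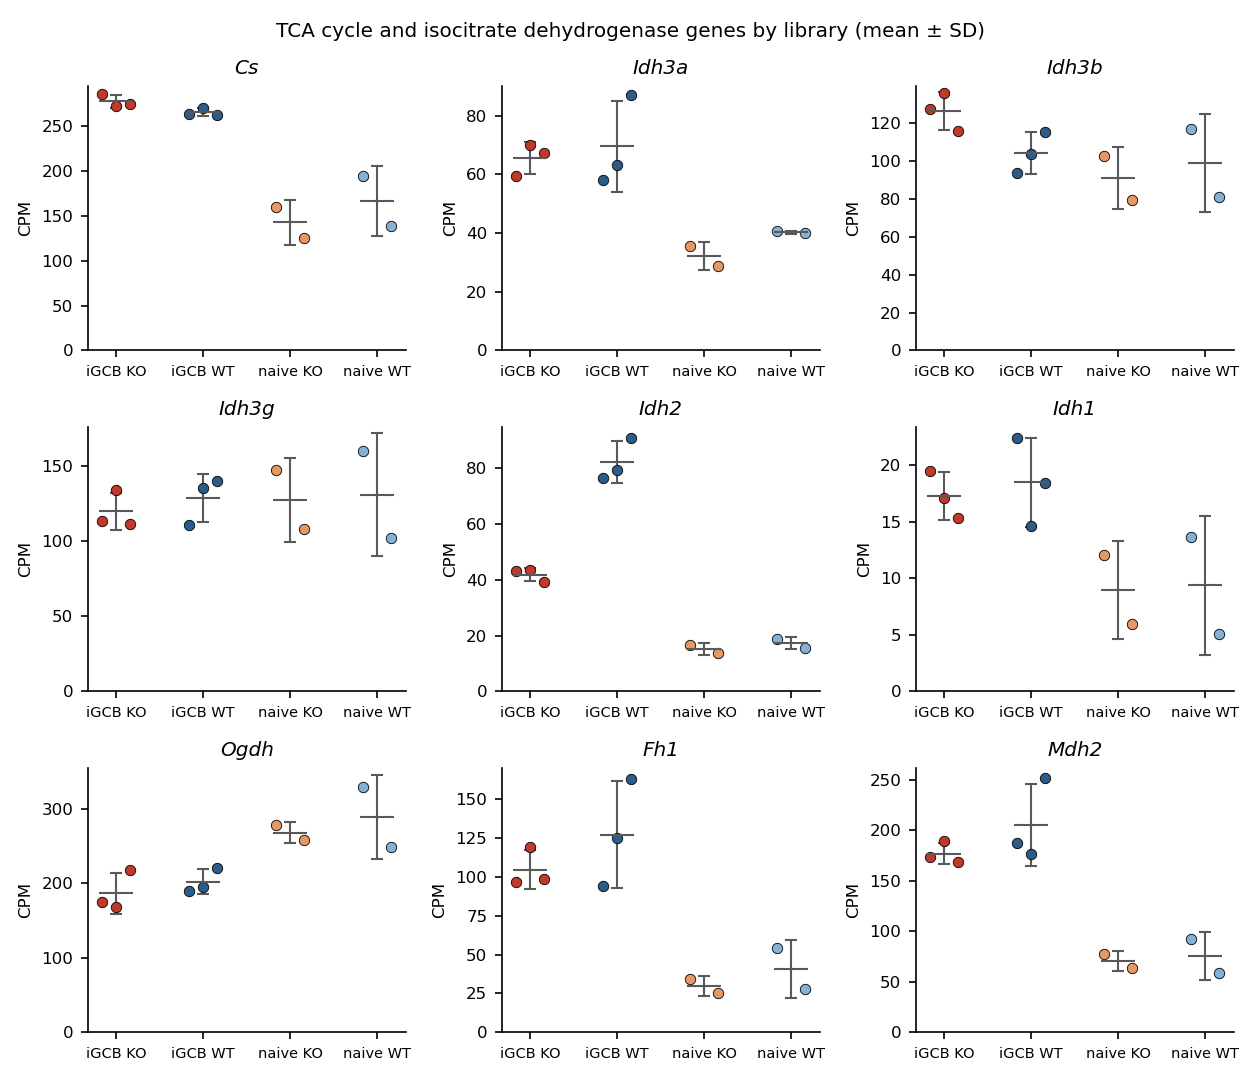
Each panel shows 1 gene, with CPM on a linear axis from 0; points are libraries, horizontal lines are group means and bars are SD (iGCB n = 3, naive n = 2). Idh2 lies at 39.1 to 43.3 CPM in iGCB KO and 76.5 to 90.7 CPM in iGCB WT libraries, and Ogdh is lower in iGCB than in naive libraries.

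No such difference was called for Idh1, the cytosolic and peroxisomal counterpart. It was at 19.5, 17.1 and 15.3 CPM in iGCB KO libraries and at 22.4, 14.6 and 18.4 CPM in iGCB WT libraries. The groups overlapped, and the log2 fold change was -0.10 (SE 0.36, 95% interval -0.90 to 0.71, adjusted p 1). Its interval was the widest of the 9 genes, and Idh1 was the least abundant of them.

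To set the NADP-dependent genes against each other, CPM was divided by the kilobases of each gene's exons. This length merges all annotated exons of a gene, whichever transcripts the cells made. Levels and ratios between genes on this scale depend on it. On this scale Idh2 over Idh1 was 2.36, 2.71 and 2.73 in iGCB KO libraries, against 3.65, 5.80 and 5.27 in iGCB WT libraries. The ratio was lower in every KO library than in any WT library, and no test was run on it. In naive cells the same ratio was 1.48 and 2.45 in KO and 1.47 and 3.34 in WT libraries, which overlapped.

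**Figure D2:**
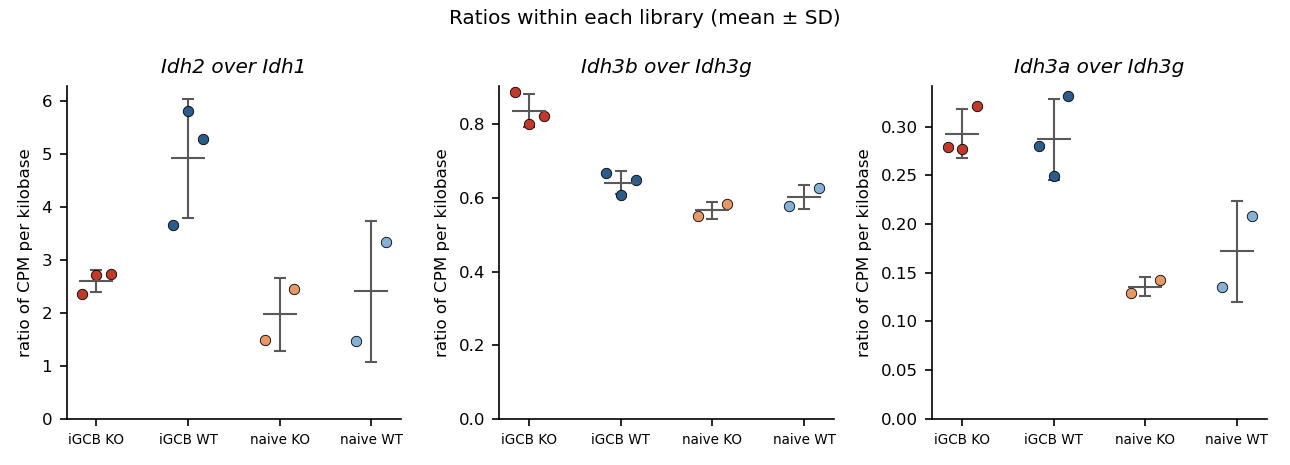
Ratios of CPM per kilobase of exons within each library, on linear axes from 0; points are libraries, horizontal lines are means and bars are SD. Idh2 over Idh1 is 2.36 to 2.73 in iGCB KO and 3.65 to 5.80 in iGCB WT libraries, and Idh3b over Idh3g is 0.800 to 0.886 in iGCB KO and 0.606 to 0.667 in iGCB WT libraries.

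The subunits of the NAD-dependent IDH3 were not called in iGCB cells. Idh3a, the catalytic alpha subunit, was at 59.5, 69.8 and 67.4 CPM in iGCB KO and 58.1, 63.3 and 87.1 CPM in iGCB WT libraries, with overlapping groups (log2 fold change -0.08, SE 0.17, adjusted p 0.981). Idh3g, the regulatory gamma subunit, was at 113, 134 and 112 CPM in iGCB KO and 111, 135 and 140.1 CPM in iGCB WT libraries, which also overlapped (log2 fold change -0.10, SE 0.20, adjusted p 0.972). Idh3b, the beta subunit, was at 127, 136 and 116 CPM in iGCB KO and 93.4, 104 and 115 CPM in iGCB WT libraries. Its lowest KO library lay just above its highest WT library, yet its log2 fold change of 0.28 (SE 0.17, 95% interval -0.10 to 0.66) had an adjusted p of 0.686. Of all genes tested, 10.2% had every KO library above every WT library.

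Within each library Idh3b over Idh3g, per kilobase of exons, was 0.886, 0.800 and 0.821 in iGCB KO and 0.667, 0.606 and 0.650 in iGCB WT libraries. The 2 groups were apart, as a description with no test. In naive cells this ratio was 0.550 and 0.582 in KO and 0.578 and 0.625 in WT libraries, with overlap. Idh3a over Idh3g overlapped between iGCB KO (0.279, 0.278 and 0.321) and iGCB WT libraries (0.280, 0.249 and 0.331).

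Citrate synthase, encoded by Cs, condenses acetyl-CoA with oxaloacetate at the entry to the cycle. Cs was at 286, 272 and 274 CPM in iGCB KO and 263, 270.1 and 262 CPM in iGCB WT libraries. The groups did not overlap, but the difference was small, with a log2 fold change of 0.06 (adjusted p 0.995, SE 0.16).

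Ogdh encodes the E1 subunit of the 2-oxoglutarate dehydrogenase complex, the step after isocitrate oxidation. It was at 175, 168 and 218 CPM in iGCB KO and 190.3, 195 and 221 CPM in iGCB WT libraries, with overlap (log2 fold change -0.12, SE 0.16, adjusted p 0.928). Fh1, fumarase, was at 96.3, 119 and 98.5 CPM in iGCB KO and 93.7, 125 and 163 CPM in iGCB WT libraries (log2 fold change -0.28, SE 0.26, adjusted p 0.827). Mdh2, mitochondrial malate dehydrogenase, was at 173, 189 and 168 CPM in iGCB KO and 187, 177 and 251 CPM in iGCB WT libraries (log2 fold change -0.21, SE 0.20, adjusted p 0.821). For Fh1 and Mdh2 the groups overlapped and iGCB WT library 3 was the highest library of all. Apart from Idh2, the 95% intervals of the genes lay within a 2-fold change either way in 8 of 8 cases. Over the 9 genes the median log2 fold change was -0.10, beside 0.00 over all genes tested, and 7 of 9 were below 0, beside 47.2% of all genes.

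**Figure D3:**
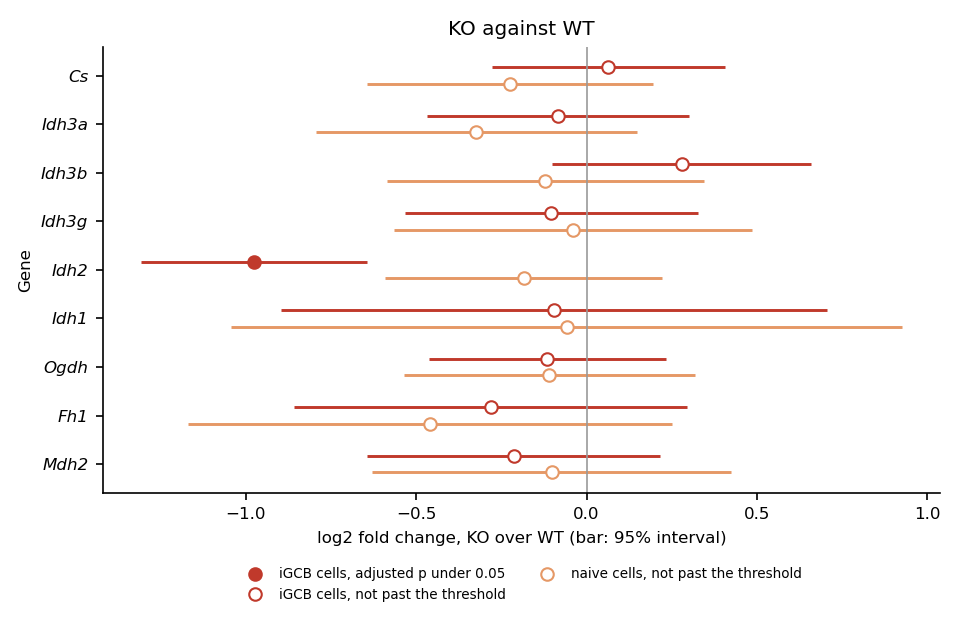
Log2 fold change of KO over WT with 95% intervals for each gene, in iGCB and naive cells; filled symbols passed an adjusted p of 0.05 in edgeR's quasi-likelihood test. Idh2 in iGCB cells, at -0.98, is the filled symbol.

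In naive B cells none of the 9 genes was called between KO and WT libraries by edgeR, where 0.0476% of all genes tested were called. None had an unadjusted p under 0.05, beside 5.55% of all genes, and DESeq2 also called none. Idh2 was at 16.7 and 13.6 CPM in naive KO and 18.8 and 15.7 CPM in naive WT libraries, with overlap. Its log2 fold change was -0.19 (SE 0.18, 95% interval -0.59 to 0.22, adjusted p 1). Idh3a, at 35.5 and 28.9 CPM in naive KO and 40.7 and 39.9 CPM in naive WT libraries, was the 1 gene of the 9 whose groups did not overlap, beside 12.7% of all genes with naive KO below naive WT (log2 fold change -0.32, SE 0.21, adjusted p 1). Fh1 had the value farthest from 0, at 34.3 and 25.2 CPM in naive KO and 54.1 and 27.7 CPM in naive WT libraries (log2 fold change -0.46, SE 0.32, adjusted p 1).

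The other 6 genes overlapped in naive cells as well. Cs was at 160.0 and 125 CPM in naive KO and 194 and 139 CPM in naive WT libraries. Ogdh was at 278 and 258 CPM in naive KO and 329 and 249 CPM in naive WT libraries. Mdh2 was at 77.2 and 63.5 CPM in naive KO and 92.3 and 58.7 CPM in naive WT libraries. In each of these genes library 1 was the higher in both genotypes. Idh3b was at 102 and 79.5 CPM in naive KO and 117 and 80.8 CPM in naive WT libraries. Idh3g was at 147 and 108 CPM in naive KO and 159.8 and 102 CPM in naive WT libraries. Idh1 was at 12.1 and 5.94 CPM in naive KO and 13.7 and 5.04 CPM in naive WT libraries.

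In both genotypes all 9 genes were higher in naive library 1, which was female, than in naive library 2, which was male. The share of all genes that were higher in library 1 was not counted, so this is not read as particular to the 9 genes. The ratio of library 1 to library 2 was largest for Idh1, at 2.03 in KO and 2.72 in WT cells. Sex and library cannot be told apart here. All 9 log2 fold changes of naive KO over WT were below 0, beside 54.8% of all genes. With scaling by library size alone, Idh1, Idh3b, Idh3g, Ogdh and Mdh2 came out above 0, and the median of all genes moved to 0.07 in place of -0.05.

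The KO effect in iGCB cells was set against the KO effect in naive cells by an interaction term. None of the 9 genes was called by edgeR, where 0.0333% of all genes tested were called. For Idh2 the iGCB effect minus the naive effect was -0.79 on the log2 scale (SE 0.24, 95% interval -1.31 to -0.27), with an unadjusted p of 0.00682 and an adjusted p of 0.484. DESeq2 called this difference, at -0.81 with an adjusted p of 0.0337. Idh2 was the 1 gene of the 9 with an unadjusted p under 0.05 in edgeR, beside 6.06% of all genes. The other 8 differences lay between -0.11 and 0.40.

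Most of these genes were called between iGCB and naive cells, as were many of all genes tested. In KO cells 5 of the 9 genes were called higher and 1 lower, where 24.8% of all genes tested were called higher and 31.4% lower in iGCB cells. In WT cells 5 were called higher and 1 lower, where 24.7% of all genes were called higher and 31.7% lower. The comparisons between stages share their libraries with the comparisons between genotypes, so the values are given side by side and are not independent of each other. The stage comparisons also set male iGCB libraries against naive libraries of both sexes.

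Idh2 rose in iGCB cells of both genotypes. Its mean was 41.7 ± 2.34 CPM in iGCB KO cells (n = 3) and 15.2 ± 2.21 CPM in naive KO cells (n = 2), a log2 fold change of 1.46 (adjusted p 7.2e-05 by edgeR, SE 0.18). In WT cells it was 82.1 ± 7.57 CPM in iGCB (n = 3) and 17.2 ± 2.17 CPM in naive cells (n = 2), a log2 fold change of 2.25 (adjusted p 5.02e-06 by edgeR, SE 0.18). In fold terms Idh2 was 2.75 times higher in iGCB KO cells and 4.76 times higher in iGCB WT cells than in the naive cells of the same genotype.

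Fh1 and Mdh2, which catalyse the last steps before oxaloacetate, also rose in both genotypes, and in KO cells Fh1 had a larger fold change than Idh2. The log2 fold change of Fh1 was 1.81 in KO cells (SE 0.31, adjusted p 0.00072) and 1.63 in WT cells (SE 0.31, adjusted p 0.00127). The log2 fold change of Mdh2 was 1.33 in KO cells (SE 0.23, adjusted p 0.000686) and 1.44 in WT cells (SE 0.23, adjusted p 0.000407). Every iGCB library lay above every naive library for both genes.

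Idh3a rose by 1.03 on the log2 scale in KO cells (SE 0.20, adjusted p 0.00157) and by 0.79 in WT cells (SE 0.20, adjusted p 0.0067). Cs rose by 0.96 in KO cells (SE 0.18, adjusted p 0.00115) and by 0.67 in WT cells (SE 0.18, adjusted p 0.00827). The Idh3a call in WT cells was lost with the replicate number as a block, at 0.59 (adjusted p 0.089). The Cs call in WT cells was lost without naive WT library 2, where the log2 fold change was 0.44 (adjusted p 0.0795).

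Ogdh went the other way. It averaged 187 ± 27.0 CPM in iGCB KO and 268 ± 14.5 CPM in naive KO cells, a log2 fold change of -0.52 (adjusted p 0.0257, SE 0.18). In WT cells it averaged 202 ± 16.6 CPM in iGCB and 289 ± 56.5 CPM in naive cells, also -0.52 (SE 0.18, adjusted p 0.0271). Every iGCB library lay below every naive library of its genotype. With the male libraries only, which leave 1 naive library of each genotype, it was -0.45 in KO cells and -0.30 in WT cells. The call was lost with a sex term, at -0.40 in KO cells (adjusted p 0.0593) and -0.38 in WT cells (adjusted p 0.0769). It was kept under 11 of 18 alternatives in KO cells and 10 of 18 in WT cells. The ratio of Ogdh to Cs in CPM was 0.611 to 0.794 in iGCB KO and 0.722 to 0.844 in iGCB WT libraries, against 1.74 and 2.06 in naive KO and 1.69 and 1.79 in naive WT libraries.

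Idh1, Idh3b and Idh3g did not pass the threshold in either genotype. The log2 fold change of Idh1 was 0.94 in KO (SE 0.42, adjusted p 0.076) and 0.98 in WT cells (SE 0.42, adjusted p 0.0671), and all iGCB libraries lay above all naive libraries. With a sex term it was 1.65 in KO (adjusted p 0.000306) and 1.76 in WT cells (adjusted p 0.000233). With the male libraries only, which leave 1 naive library of each genotype, it was 1.55 in KO and 1.87 in WT cells. Idh3b had a log2 fold change of 0.48 in KO (adjusted p 0.0575, SE 0.20) and 0.07 in WT cells (SE 0.19, adjusted p 0.76). Idh3g had -0.09 in KO (SE 0.22, adjusted p 0.739) and -0.03 in WT cells (SE 0.22, adjusted p 0.927). With the male libraries only Idh3b had 0.68 in KO cells. Idh3b was called in KO cells under 6 of 18 alternatives and in WT cells under 0 of 18. Idh3a over Idh3g per kilobase was 0.249 to 0.331 in iGCB libraries of both genotypes and 0.129 to 0.208 in naive libraries. Over the 9 genes the median log2 fold change was 0.96 in KO and 0.79 in WT cells, beside -0.26 in KO and -0.25 in WT cells over all genes tested. In KO cells 7 genes lay above naive without overlap (34.2% of all genes), 1 below (41.3%) and 1 overlapped. In WT cells 6 lay above (32.2%), 1 below (40.2%) and 2 overlapped.

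**Figure D4:**
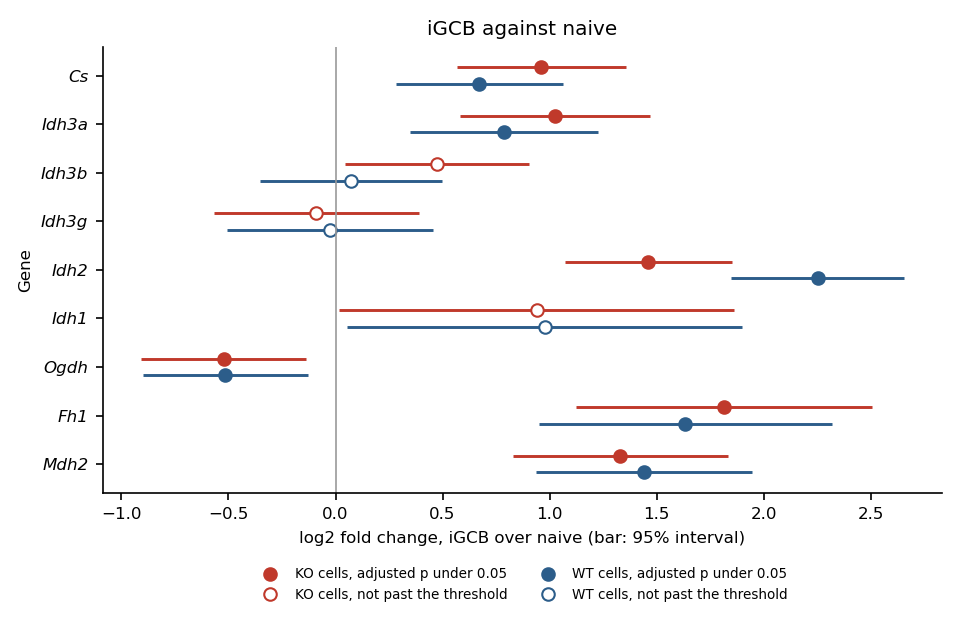
Log2 fold change of iGCB over naive cells with 95% intervals for each gene, in KO and WT cells; filled symbols passed an adjusted p of 0.05 in edgeR's quasi-likelihood test. Idh2, Fh1, Mdh2, Idh3a and Cs are right of 0 and Ogdh is left of it in both genotypes.

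Per kilobase of exons the order of the genes differed between stages. The order within a group rests on the merged length of all annotated exons, not on the length of the transcripts made. In iGCB KO cells Mdh2 (49.6 CPM per kilobase) and Cs (48.0) led, with Idh3g at 44.3, and the spreads of these 3 overlapped. In iGCB WT cells Mdh2 was at 57.6, Idh3g at 47.6 and Cs at 45.9, and the spreads of Mdh2 and Idh3g and of Idh3g and Cs overlapped. In naive KO cells Ogdh was at 49.1, Idh3g at 47.2 and Idh3b at 26.6. In naive WT cells Ogdh was at 53.0, Idh3g at 48.5 and Idh3b at 28.9. The spreads of Ogdh and Idh3g overlapped in both naive groups. The lowest gene was Idh1 in all 4 groups, at 6.24 in iGCB KO, 6.67 in iGCB WT, 3.25 in naive KO and 3.38 CPM per kilobase in naive WT cells. Idh2 stood at 16.1 in iGCB KO, 31.7 in iGCB WT, 5.86 in naive KO and 6.66 CPM per kilobase in naive WT cells. In iGCB WT cells this put Idh2 just above Idh3b at 30.4, and the spreads of the 2 overlapped, while in iGCB KO cells Idh3b was at 37.0.

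Other genes of the pathway were read from 8 lists. Of 11 other TCA cycle enzymes none was called between iGCB KO and iGCB WT cells by edgeR, beside 1.27% of all genes. An unadjusted p under 0.05 was found for 2 of the 11, beside 9.76% of all genes. These were Ogdhl, a homologue of Ogdh, and Dld, the E3 subunit shared by the 2-oxoacid dehydrogenase complexes. Ogdhl was at 7.66, 15.1 and 13.0 CPM in iGCB KO libraries, against 2.39, 2.31 and 2.39 CPM in iGCB WT libraries (log2 fold change 2.33, SE 0.62, adjusted p 0.133). Every KO library lay above every WT library, and it was called under 7 of 18 alternatives. These were DESeq2 (adjusted p 0.00573) and edgeR with no low-count filter (6.59e-05), with only the groups compared (0.000754), with a sex term (0.0262), with the male libraries only (0.00171) and without naive WT library 1 (0.00441) or 2 (0.00287). In naive cells Ogdhl was at 1.76 and 1.61 CPM in KO and 0.0338 and 0.605 CPM in WT libraries (log2 fold change 2.46, SE 0.82, adjusted p 0.663). Leaving out 1 library moved this naive value between 1.47 and 5.51, and it was called without naive WT library 2 (5.51, adjusted p 0.0144) and with no low-count filter (adjusted p 0.0087). Dld had a log2 fold change of -0.35 in iGCB (adjusted p 0.469) and -0.45 in naive cells (adjusted p 0.817).

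Of 6 genes for cytosolic counterparts and citrate export, 1 was called lower in iGCB KO cells, beside 0.923% of all genes. Got1, the cytosolic aspartate aminotransferase of the malate-aspartate shuttle, was at 22.7, 27.2 and 24.2 CPM in iGCB KO libraries, against 70.2, 88.7 and 120.2 CPM in iGCB WT libraries. Its log2 fold change was -1.91 (SE 0.29, adjusted p 0.0105 by edgeR), and leaving out any 1 iGCB KO library ended the call (adjusted p 0.0638 to 0.0811). In naive cells Got1 was at 29.1 and 38.5 CPM in KO and 40.9 and 88.8 CPM in WT libraries (log2 fold change -0.94, SE 0.34, adjusted p 0.75).

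Between iGCB KO and WT cells edgeR called 1.27% of all genes tested, the share to set beside the counts that follow. None of the 12 tested genes of pyruvate entry was called, with Pdk2 at 0.84 (adjusted p 0.204) and Pdp1 at 0.64 (adjusted p 0.23). DESeq2 called both (adjusted p 0.026 for Pdk2 and 0.0347 for Pdp1). None of 8 genes of glutamine use and anaplerosis was called, with Me2 at -0.31 (adjusted p 0.47) and Slc1a5 at -0.25 (adjusted p 0.683). None of 4 mitochondrial carriers was called, with Slc25a10 at -0.29 (adjusted p 0.658) and Slc25a12 at 0.20 (adjusted p 0.725). These values are log2 fold changes. None of 3 genes that remove 2-hydroxyglutarate was called, with Adhfe1 at -1.37 (adjusted p 0.568) and D2hgdh at -0.18 (adjusted p 0.826). None of 7 genes of NADPH production outside the IDH genes was called, with Mthfd2 at -0.53 (adjusted p 0.551) and Nnt at -0.40 (adjusted p 0.613). None of 4 lipoylation genes was called, with Nfu1 at 0.13 (adjusted p 0.946) and Lipt2 at 0.30 (adjusted p 0.958).

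Of all genes tested, 0.0476% were called between naive KO and naive WT cells. Across all 8 lists edgeR called no gene in this comparison with the settings used throughout. With no low-count filter it called Ogdhl (adjusted p 0.0087) and Got1 (adjusted p 0.0391). Beside Ogdhl, Dld and Got1, Mthfd2l had a log2 fold change of -1.04 (adjusted p 0.801), Pcx 0.58 (0.919) and Pck2 0.55 (0.907). Me1 had 0 counts in both naive KO libraries and 0 and 2 counts in naive WT libraries. The adjusted p was 1 for Gpt2 at 0.53, Pdk3 at -0.30, Slc25a10 at 0.31, Slc25a11 at -0.10, D2hgdh at 0.28, Adhfe1 at -0.72, Nnt at -0.44, Lias at -0.22 and Nfu1 at -0.12. The sign of Slc25a11 and Nfu1 turned with scaling by library size alone.

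For the difference of KO effects edgeR called no gene of the 8 lists, where 0.0333% of all genes tested were called. Unadjusted p was under 0.05 for 6.06% of all genes. Of the list genes with such a p, Got1 had -0.97 (adjusted p 0.82), Pdp1 0.70 (0.818) and Slc25a10 -0.59 (0.819). These values are the iGCB effect minus the naive effect on the log2 scale. Other differences with the smallest p in their lists included Dlst at 0.26, Sucla2 at 0.28, Pdk3 at 0.43, Pck2 at -0.50, Gpt2 at -0.62, Slc25a11 at 0.32, D2hgdh at -0.45, Mthfd2l at 1.10, Mthfd2 at -0.77, Nfu1 at 0.25 and Lias at 0.19. Their adjusted p ran between 0.852 and 1.

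**Figure D5:**
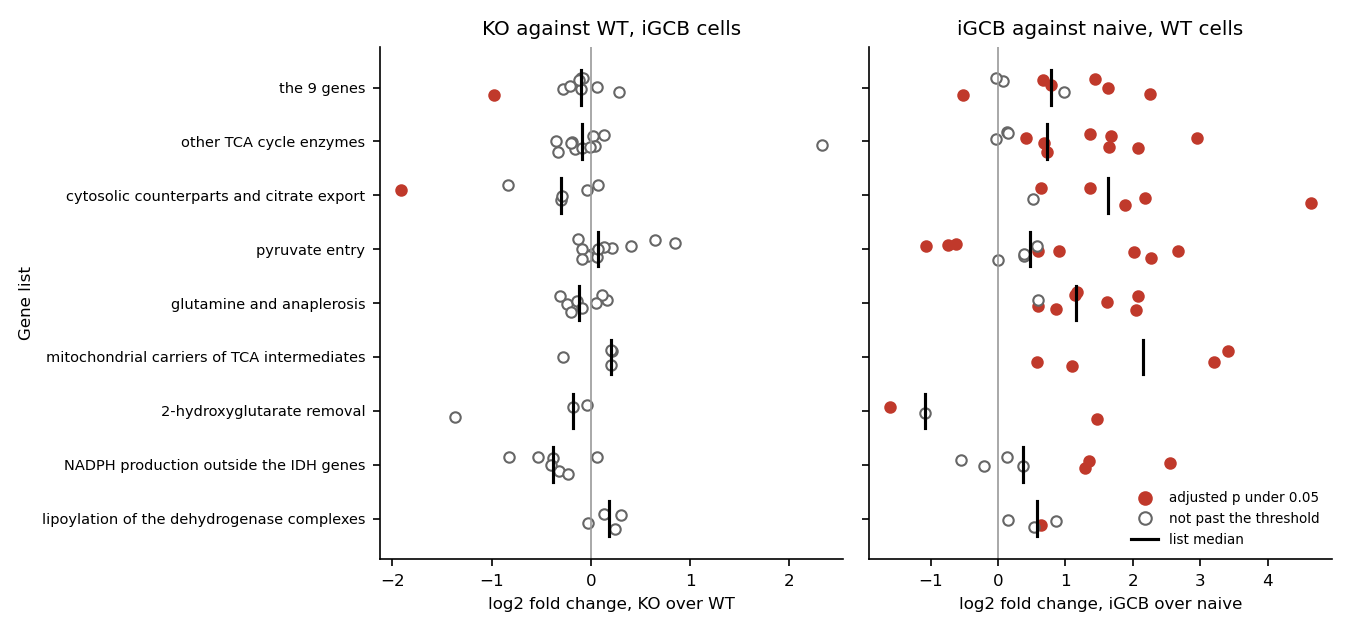
Log2 fold changes of every tested gene in the 9-gene group and in 8 pathway lists, for iGCB KO over iGCB WT (left) and iGCB over naive in WT cells (right); filled points passed an adjusted p of 0.05 and bars are list medians. On the left Idh2 at -0.98 and Got1 at -1.91 are filled, and on the right most lists hold filled points above 0.

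Between stages many genes of these lists were called, as were many of all genes tested (24.8% higher and 31.4% lower in KO cells, 24.7% higher and 31.7% lower in WT cells). In the counts below, genes that rose are those called higher. In KO cells 7 of 11 other TCA cycle enzymes rose in iGCB, among them Ogdhl at 2.82, Sdhd, a membrane subunit of succinate dehydrogenase, at 2.08 and Suclg1, a subunit of succinate-CoA ligase, at 1.64. In WT cells 8 of 11 rose, among them Ogdhl at 2.95, Sdhd at 2.07 and Sdhc at 1.68. All 4 tested carriers rose in each genotype, and Slc25a13, an aspartate-glutamate carrier, had the largest value, at 3.55 in KO and 3.41 in WT cells. Slc25a10, the dicarboxylate carrier, rose by 2.60 in KO and 3.19 in WT cells, and Slc25a11 by 1.42 in KO and 1.10 in WT cells. The citrate carrier gene Slc25a1 rose by 2.34 in KO and 2.18 in WT cells, and Mdh1, the cytosolic malate dehydrogenase, by 1.53 in KO and 1.89 in WT cells, among 5 of 6 genes called in each. Me1, the cytosolic malic enzyme, was also called, on 2 to 36 counts in iGCB libraries and at most 2 in naive libraries. The Me1 call was lost in KO cells without either naive KO library (adjusted p 0.0581 and 0.0667) and with the replicate block (0.0593). In WT cells it was lost without iGCB WT library 1 or 2 or iGCB KO library 1 (adjusted p 0.0505 to 0.0892), with the replicate block (0.117) and with a sex term (0.112). Me1 was at 3.57 in WT cells without naive WT library 1 and at 3.56 with the male libraries only, each with 1 naive WT library left. Of the genes for 2-hydroxyglutarate removal, D2hgdh fell by 2.06 in KO and 1.61 in WT cells. Pcx, pyruvate carboxylase, rose by 2.17 in KO and 2.67 in WT cells, among 5 genes of pyruvate entry called higher in each, with 3 called lower in WT and none in KO cells. The pyruvate dehydrogenase kinase genes Pdk1 and Pdk3 were among them, Pdk1 at 2.57 in KO and 2.27 in WT cells and Pdk3 at 2.45 in KO and 2.02 in WT cells. Mthfd2, a mitochondrial folate enzyme, rose by 1.78 in KO and 2.54 in WT cells. All these are log2 fold changes. Of 8 glutamine and anaplerosis genes 5 rose in KO cells, with Got2 at 1.46, Gpt2 at 1.42 and Me2 at 0.92, and 7 in WT cells, with Gls2 at 2.08, Gpt2 at 2.04 and Got2 at 1.61. The Gls2 call in WT cells was lost with the replicate block (adjusted p 0.0511). Without naive WT library 2, which leaves 1 naive WT library, Gls2 was at 1.73 in WT cells. NADPH genes rose in 4 of 7 cases in KO cells, with Nnt at 1.32 and Mthfd2l at 1.23 beside Mthfd2, and in 3 of 7 in WT cells, with Pgd at 1.35 and Nnt at 1.29. The Mthfd2l call in KO cells was lost with no low-count filter (adjusted p 0.0877) and with the replicate block (0.109). Without naive KO library 1, which leaves 1 naive KO library, Mthfd2l was at 1.11 in KO cells. All 4 lipoylation genes lay above 0 in both genotypes. Nfu1 alone of them was called, at 0.88 in KO and 0.63 in WT cells. With a sex term 2 of the 4 were called in each genotype, as with DESeq2 in KO cells. In WT cells the Nfu1 call was lost without iGCB WT library 2 (adjusted p 0.0587) or 3 (0.108). It was also lost with RLE size factors (adjusted p 0.0517), with only the groups compared (0.0662) and with the replicate block (0.232). Without naive WT library 2, which leaves 1 naive WT library, Nfu1 was at 0.46 in WT cells.

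The genes whose pattern over the 10 libraries was most like each member were found by Euclidean distance of centred log2 CPM among 10103 genes. For Idh2 these were Derl3 (distance 0.597), Chtf18 (0.652) and Ostc (0.661). The nearest of the 9 to Idh2 was Fh1, at a distance of 1.14. Fh1 was closest to Psma5, Taldo1 and Psmb8, and Mdh2 to Metap2, Trappc3 and Hdgfl2, while Fh1 and Mdh2 were 0.787 apart. Cs was closest to Csnk1d, Plaa and Nup50, and its nearest member was Idh3a, at 0.640. Idh3a was closest to Tm2d3, Bzw2 and Eif3g, Idh3b to Polr2m, Zpr1 and Mrps35, and Idh3g to genes that include Tprkb and Rgp1. Ogdh was closest to Aqr, Tgs1 and Kat14, and Idh1 to Pcyox1, 1110012L19Rik and Hsdl2. All libraries enter each distance, so stage and the sex of the naive libraries enter it.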

How the data were processed

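The authors deposited whole-number counts of reads per gene symbol for all 10 libraries in 1 table, made with featureCounts on mm10, per the submitters' processing notes. Aligner, annotation, tool versions and strandedness: not given in the sources used here. RNA was extracted as total RNA with the RNeasy plus kit, and mRNA libraries came from an NEB kit, per the labels. Of counts between 1 and 20, 17.7 to 26.9% were odd, so each mate of a pair may have been counted.

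Counts were filtered with filterByExpr (minimum count 10), scaled by TMM and tested in 1 fit of 4 groups (6 residual degrees of freedom) with edgeR 4.0.16's quasi-likelihood test in R 4.3.3, with Benjamini-Hochberg adjustment over all 21010 genes and a threshold of 0.05. limma 3.58.1 is loaded by edgeR. DESeq2 1.42.0 was an alternative. CPM uses TMM-scaled library sizes. Alternatives were RLE and library-size scaling, no filter, DESeq2, only the groups compared, a replicate block, a sex term, leaving out each library and, chosen after seeing the data, male libraries only. Male libraries only leaves 1 naive library of each genotype, and leaving out a naive library leaves 1 in its group. The procedure was tested on simulated data. Each SE was worked back from the quasi-likelihood test, as the absolute log2 fold change over the square root of its F statistic. Intervals are at 95% and were built from this SE with a t quantile.

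The members and lists were chosen with earlier results of these data known. Named genes were all 9 members and, per list and comparison, up to 3 called genes of largest fold change, or the 2 of smallest p where none was called; some genes this rule names are not reported here. Whether libraries come from separate mice is not stated, so p-values measure the spread between these libraries, which may be technical among iGCB libraries. The 2 naive libraries of each genotype differed in sex by their counts, so they did not come from the same mouse. The labels do not say what a replicate number marks. Deviations from group means of same-numbered KO and WT libraries correlated at 0.46, -0.12 and 0.042 in iGCB cells, so the numbers were not taken as pairs there. In naive cells they correlated at 0.55, a value that is the same for both numbers with 2 libraries a group, and the numbers match KO and WT libraries by sex.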

Additional observations from a re-analysis of the deposited data

How the results depend on the processing

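The number of libraries (2 or 3 a group) limits the intervals, most for Idh1. No cause of the changes below was tested. The number of genes called between naive KO and WT cells was 10, against 242 with no low-count filter, 168 with DESeq2, 0 with only the groups compared, 57 with a sex term, 23 with the male libraries only (chosen after seeing the data) and 3 to 44 when 1 library was left out. Between iGCB KO and WT cells it was 266, against 841, 840, 863, 640, 691 and 41 to 491 under these settings, in the same order. For the difference of KO effects it was 7, against 373, 233, 108, 102 and 0 to 65, with no fit of only the groups compared. Of the 9 genes, DESeq2 called 1 for the difference. Leaving out 1 library gave 0 to 1 of the 9 called between iGCB KO and WT cells, 5 to 8 between stages in KO cells (8708 to 12429 genes in all) and 5 to 7 in WT cells (9089 to 11899 genes in all). With the replicate number as a block, which matches KO and WT libraries by sex in naive cells and has no known meaning in iGCB cells, 31 genes were called in naive cells, 589 in iGCB cells and 74 for the difference.

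Reversals were all of uncalled log2 fold changes. Between naive KO and WT cells, Idh1 was 0.090 with library size alone, 0.020 with the replicate block, 0.020 with a sex term and 0.22 with the male libraries only. With library size alone Idh3b was 0.019, Idh3g 0.10, Ogdh 0.031, Mdh2 0.041, Slc25a11 0.043 and Nfu1 0.025. With the male libraries only Idh3g was 0.067, Ogdh 0.037, Mdh2 0.099, Slc25a11 0.085, Nnt 0.096 and Nfu1 0.037, and Idh3g was 0.0096 with only the groups compared. Between stages in WT cells Idh3b was -0.0074 with RLE size factors and -0.0076 with DESeq2. Idh3g was 0.021 with library size alone, 0.037 with no filter, 0.0035 with only the groups compared, 0.28 with a sex term and 0.33 with the male libraries only. In KO cells Idh3g was 0.20 with a sex term and 0.16 with the male libraries only. For the difference of KO effects with the male libraries only, Fh1 was -0.13 and Pcbp1 0.96. Leaving out 1 library gave ranges that cross 0. Between naive KO and WT cells these were Cs -0.46 to 0.031, Fh1 -0.87 to 0.095, Idh1 -0.68 to 0.83, Idh3b -0.37 to 0.16, Idh3g -0.34 to 0.31, Mdh2 -0.40 to 0.25, Ogdh -0.31 to 0.099, Adhfe1 -1.28 to 0.18, Nfu1 -0.29 to 0.064, Slc25a11 -0.35 to 0.19 and Me1, with at most 2 counts in any naive library, -4.09 to 0.00. Between iGCB KO and WT cells they were Idh1 -0.24 to 0.066, Idh3a -0.20 to 0.11 and Nfu1 -0.014 to 0.32. Between stages they were Idh3b -0.17 to 0.37 and Idh3g -0.32 to 0.33 in WT cells, and Idh3g -0.29 to 0.16 and Pcbp1 -0.65 to 2.63 in KO cells. For the difference they were Fh1 -0.38 to 0.59, Idh1 -0.93 to 0.58, Idh3g -0.42 to 0.23, Mdh2 -0.47 to 0.19, Ogdh -0.21 to 0.19, Me1 -0.83 to 3.26 and Pcbp1 -1.82 to 1.45.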
